A study of Mus musculus with 10 samples.

Results

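Most proteins of mitochondria are encoded in the nucleus, made in the cytosol and carried into the organelle by a set of membrane machines. The TOM complex of the outer membrane receives precursor proteins at its receptors and passes them through the Tomm40 channel. Behind it, the TIM23 complex and its motor pull proteins with a cleavable leader peptide into the matrix, the TIM22 complex inserts carriers into the inner membrane with the help of small soluble TIM chaperones, and the SAM complex folds barrel proteins into the outer membrane. Brown fat, which burns fuel for heat, is packed with mitochondria and so relies on these machines.

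The genes described here were named by their symbols on the array: Tomm or Timm followed by a digit, together with Samm50, Pam16, Dnajc19, Mtx1, Mtx2 and Grpel1. The rule named 31 genes, and 28 of them were measured, out of 18193 genes measured in all. The other 3, Dnajc19, Tomm5 and Tomm6, were read only by probe sets that the annotation gives to a further gene as well, and are not analysed here. Where a gene had several probe sets, which are groups of short probes for the same transcript, the one with the highest mean over the 10 arrays stood for it.

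Brown adipose tissue came from untreated littermate mice of about 1 year on a 129 background: 5 wild types (WT) and 5 labelled SIRT3 KO, which lack the mitochondrial deacetylase SIRT3 according to the label, with 1 array for each sample. The labels do not say how the knockout was made or whether it covers the whole body. The values are log2 signals normalized between arrays by the authors with RMA, so a change of 1 unit is a doubling and a shift common to most genes would not be seen. The 10 arrays correlated with each other over probe sets at 0.988 to 0.997, and the median signal of an array lay between 5.58 and 5.61. In arrays labelled KO the Sirt3 signal was 10.32 ± 0.07 (SD, n = 5), against 10.13 ± 0.10 (SD, n = 5) in WT, so it was not lower. Which part of the gene was removed is not known here, and the directions given are therefore those of the labels. All 9 measured markers of brown adipocytes were above the median signal in every array, as were 10897 of all 18193 genes. Among the 9 was Ucp1, the uncoupling protein, at 14.18 ± 0.09 in WT and 14.10 ± 0.09 in KO (SD, n = 5 each).

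No import gene passed the test between arrays labelled KO and WT. By limma with Benjamini-Hochberg adjustment over all genes, 0 of 28 members were called at an adjusted p under 0.05, as were 0 of 18193 genes (0%), and the smallest adjusted p of a member was 0.914. An unadjusted p under 0.05 was found for 0 members, against 851 genes or 4.68% of all. Every member had overlapping groups, while 0.627% of all genes did not. The differences were small: from -0.13 for Pam16 to 0.08 for Timm8a2, in log2 units, which is a KO level of 0.915 to 1.06 times the WT level. The 95% confidence intervals of the probe sets used, before any adjustment, reached no lower than -0.27 and no higher than 0.23 in any member. A change of the signal by 1 log2 unit thus lay outside the interval of each of the 28. Intervals of other probe sets reached further, to -0.42 in Tomm40l and to 0.34 in Tomm70a. Timm8a2 had a mean signal of 2.84, close to the lowest values of the arrays, so its interval describes the signal only.

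**Figure D1:**
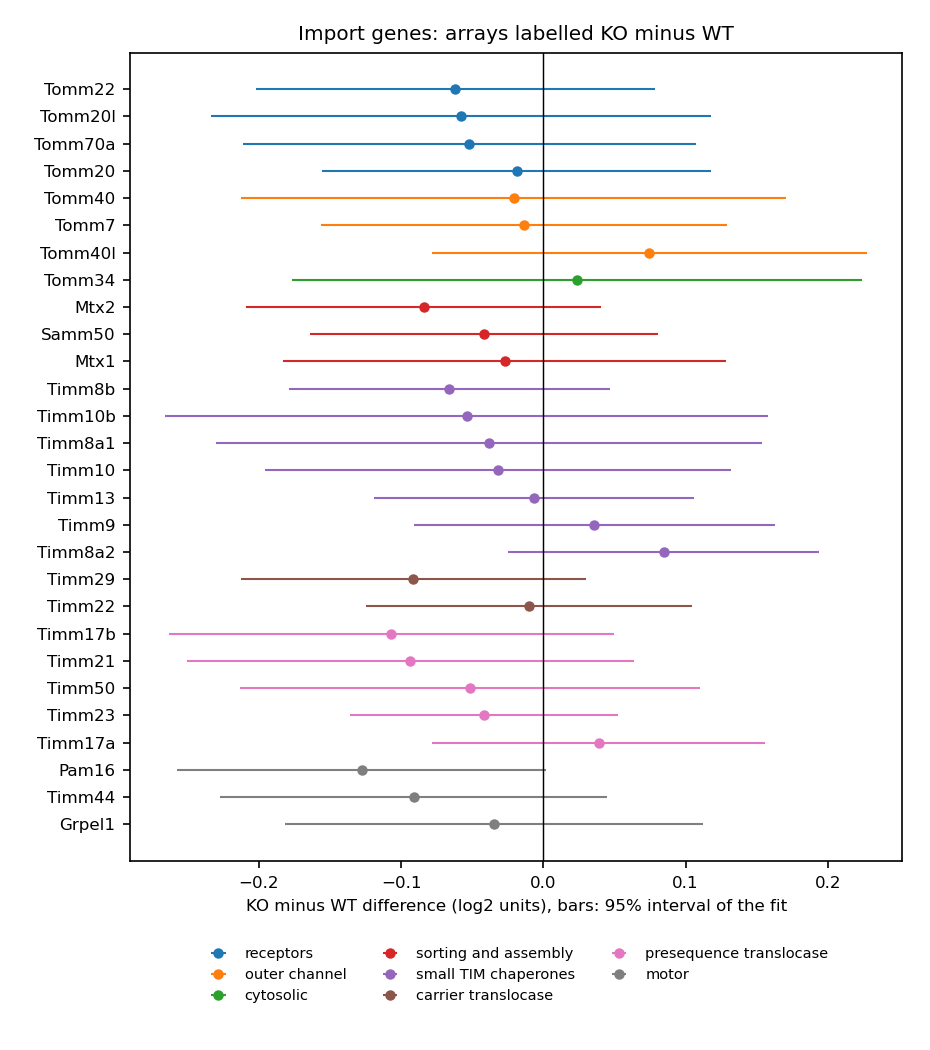
Difference between arrays labelled KO and WT for each of the 28 import genes (points, log2 units; bars are 95% confidence intervals of the limma fit, n = 5 arrays per group), coloured by role. All intervals include 0, and 23 of the 28 points lie below it.

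By sign, 23 members were lower and 5 higher in arrays labelled KO, with a median difference of -0.04 log2 units. Over all genes 56.1% were lower and the median was -0.013. Markers of several cell types also leaned one way by label, with 0 called. Of the skeletal muscle transcripts 19 of 19 were lower in KO (median -1.61), as were 8 of 9 brown adipocyte markers (median -0.08), while 7 of 7 endothelial markers were higher (median 0.14). Their part in the signs of the import genes was not tested. After another quantile normalization 18 were lower and 10 higher, with a median of -0.017, against 49.8% lower among all genes. Leaving out single arrays put the median of the members between -0.071 and -0.012. It was nearest to 0 without WT 5 (-0.012), WT 4 (-0.018) or KO 4 (-0.023), and farthest from it without KO 1 (-0.071), WT 1 (-0.058) or WT 2 (-0.058). Without both WT 4 and WT 5 it was 0.0025, with 13 members lower and 15 higher, against 54.8% lower and a median of -0.010 over all genes. WT 4 and WT 5 were the 2 arrays with the highest mean of the members, so leaving them out must raise the KO minus WT difference.

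The spread between arrays of the same label was small in most members. The SD within groups had a median of 0.095 log2 units over the members and 0.124 over all genes, and 23 of 28 members lay below the value for all genes. So did 14 of 20 partners of the import machines (median 0.103) and 13 of 16 general mitochondrial genes, whose median of 0.049 was lower than that of the members. Genes of like signal were not compared. Timm23 had the smallest spread of the members, at 0.030, and Timm10b the widest, at 0.165. By signal, 26 of the 28 members were above the median signal in every array, as were 10897 of the 18193 genes. The exceptions were Timm8a2 and Tomm20l, with mean signals of 2.84 and 5.06.

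The start sites of these genes were set beside the data because transcription factors of the NRF1 and ETS families, the latter including GABP, are known to act on many nuclear genes of mitochondria. RefSeq windows from 250 bases before to 50 after the start (GRCm38.p6) were at hand for 25 of the 28 members, all but Tomm7, Tomm40l and Timm21. The letters CGCANGCG, the core of the NRF1 motif, were found on either strand in 6 of the 25 (24%), which were Pam16, Timm13, Timm29, Timm50, Timm8b and Tomm20. The same letters were in 9.22% of all genes in that table and in 14.8% of the 14368 genes that were also measured. An ETS motif, CCGGAAGT, was found on either strand in 7 of the 25 (28%), which were Mtx2, Timm10, Timm10b, Timm23, Timm29, Timm8a2 and Tomm70a. It was in 4.31% of all genes in the table and in 6.65% of those also measured. In the 250 bases before the start alone, 3 members (12%) held the NRF1 letters, near the 12.3% of measured genes, and 5 (20%) held the ETS letters, against 4.98%. Promoters of genes of like signal, or of like content of G and C, were not compared, so these shares do not show a trait particular to import genes. A match is a run of letters and was not tested as a binding site.

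The last 60 bases before the start are shown for 4 members whose values follow, 2 with each motif, 5′ to 3′ on the strand of the gene with the motif in capitals. They lie at chr16:4624947-4625006 on the minus strand for Pam16, chr8:126945922-126945981 on the minus strand for Tomm20, chr2:74825752-74825811 on the plus strand for Mtx2 and chr14:32201892-32201951 on the minus strand for Timm23.
Pam16: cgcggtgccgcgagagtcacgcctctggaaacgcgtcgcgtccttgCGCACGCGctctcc
Tomm20: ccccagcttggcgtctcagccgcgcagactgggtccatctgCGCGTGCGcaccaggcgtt
Mtx2: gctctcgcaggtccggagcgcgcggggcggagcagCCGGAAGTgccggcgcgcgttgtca
Timm23: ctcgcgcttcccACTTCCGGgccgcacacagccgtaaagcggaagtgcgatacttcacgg
The motif began 14 bases before the start in Pam16, 19 in Tomm20, 25 in Mtx2 and 48 in Timm23. In Tomm20 and Timm23 the capitals show the motif as it reads from the opposite strand.

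The receptors of the outer membrane were 4 genes, each lower in KO by a small amount and none called. Values by array are listed here and below in the order of the array numbers, 1 to 5. Tomm22, the receptor that also organises the TOM complex, gave 10.86, 10.79, 10.98, 10.95 and 11.01 in WT and 10.99, 10.84, 10.90, 10.73 and 10.82 in KO. Its groups overlapped, and the difference was -0.06 ± 0.064 (KO minus WT ± SE of the fit, as below). Tomm20, the receptor for leader peptides, differed by -0.019 ± 0.062, and Tomm70a, the receptor for carrier proteins, by -0.05 ± 0.073. In Tomm70a, WT 4 (10.05) and WT 5 (10.04) stood above all other arrays, whose values ran from 9.76 to 9.96. Tomm20l, a paralog of Tomm20, was dim, with 5.00, 5.10, 4.92, 5.15 and 5.27 in WT and 5.11, 5.06, 4.82, 5.13 and 5.02 in KO. Its groups overlapped too (-0.06 ± 0.080).

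In the outer channel the paralogs went opposite ways without passing the test. Tomm40, the pore itself, gave 9.69, 9.65, 9.76, 9.9997 and 9.84 in WT and 9.95, 9.73, 9.90, 9.63 and 9.63 in KO. Both groups held high and low arrays, and the difference was -0.021 ± 0.087. Tomm40l, a second channel isoform, gave 9.27, 9.30, 9.37, 9.31 and 9.19 in WT and 9.39, 9.43, 9.48, 9.38 and 9.13 in KO. Here 4 of 5 KO arrays lay above all WT arrays and KO 5 lay below them (0.07 ± 0.070). The other probe set of Tomm40l went the other way, at -0.22 ± 0.092 with an unadjusted p of 0.034 by limma, the only member probe set of 57 under 0.05, so the direction for this gene depends on the probe set. Tomm7, a small subunit that steadies the channel, differed by -0.014 ± 0.065, and its 3 other probe sets had the opposite sign.

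Tomm34 is a cytosolic protein that binds heat shock chaperones and precursor proteins, and its values spread more within KO than within WT. It gave 8.63, 8.48, 8.44, 8.38 and 8.38 in WT and 8.28, 8.77, 8.39, 8.40 and 8.57 in KO. The highest and the lowest value were both in KO arrays, and the difference was 0.024 ± 0.091.

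The sorting and assembly complex inserts barrel proteins into the outer membrane. Its core, Samm50, gave 12.06, 11.96, 11.99, 12.03 and 12.04 in WT and 12.10, 11.94, 12.05, 11.90 and 11.88 in KO. KO 2, KO 4 and KO 5 were below every WT array, KO 1 was above every one, and the difference was -0.04 ± 0.056. Mtx2, a metaxin that works with it, gave 11.11, 10.95, 11.06, 11.09 and 11.11 in WT and 11.06, 10.95, 11.08, 10.91 and 10.91 in KO. KO 4 and KO 5 were the lowest of the 10 arrays, and WT 2 and KO 2 were next (-0.08 ± 0.057). Mtx1, the other metaxin, differed by -0.027 ± 0.071.

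Small TIM chaperones ferry hydrophobic precursors across the space between the membranes, and 5 of the 7 were lower and 2 higher in KO. Timm8b, which pairs with Timm13, gave 11.17, 11.24, 11.18, 11.16 and 11.29 in WT and 11.21, 11.22, 11.10, 11.10 and 11.08 in KO. KO 3, KO 4 and KO 5 were below every WT array while KO 1 and KO 2 were within the WT range (-0.07 ± 0.051). Timm8a2, a paralog of Timm8a1, gave 2.78, 2.83, 2.74, 2.80 and 2.83 in WT and 2.83, 2.84, 2.98, 2.93 and 2.82 in KO. All 5 KO values were above the WT mean, but this was the dimmest member and its groups touched (0.08 ± 0.050). Among the rest, Timm10b differed by -0.05 ± 0.097, Timm8a1 by -0.04 ± 0.087 and Timm10 by -0.03 ± 0.075. Timm13 and Timm9, which pair with Timm8b and Timm10, differed by -0.0067 ± 0.051 and 0.04 ± 0.058. In Timm10b and Timm8a1, WT 4 and WT 5 were the highest of the 10 arrays, at 10.85 and 10.87 and at 10.09 and 10.10.

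The carrier translocase was read through 2 genes. Timm22, its channel, gave 8.79, 8.79, 8.90, 8.92 and 8.84 in WT and 8.83, 8.91, 8.83, 8.89 and 8.74 in KO. These groups lay over each other almost entirely (-0.0100 ± 0.052). Timm29, a subunit of the same complex, gave 9.86, 9.64, 9.80, 9.79 and 9.84 in WT and 9.67, 9.72, 9.61, 9.73 and 9.74 in KO. All KO arrays and WT 2 lay below the other 4 WT arrays, and the difference was -0.09 ± 0.055. Its other probe set gave -0.07 ± 0.061.

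The presequence translocase, which takes up matrix proteins, had 4 of 5 genes lower in KO. Timm23, the core of the complex, gave 12.03, 12.00, 12.07, 11.96 and 12.01 in WT and 11.97, 11.98, 11.98, 11.95 and 11.98 in KO. All 5 KO values were below the WT mean, and WT 4 lay among them (-0.04 ± 0.043). Timm17b gave 8.46, 8.47, 8.60, 8.61 and 8.72 in WT and 8.56, 8.59, 8.44, 8.30 and 8.43 in KO. KO 3, KO 4 and KO 5 were below every WT array, the difference was -0.11 ± 0.071, and its other probe set gave -0.11 ± 0.085. Timm21, which links the complex to the TOM complex and the respiratory chain, gave 9.54, 9.34, 9.56, 9.55 and 9.50 in WT and 9.52, 9.37, 9.54, 9.22 and 9.38 in KO. WT 2 stood with the lower KO arrays (-0.09 ± 0.072).

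Timm50, the receptor of that translocase, gave 9.83, 9.82, 9.87, 9.93 and 9.98 in WT and 10.02, 9.73, 9.98, 9.72 and 9.73 in KO. The KO arrays split, with KO 1 and KO 3 as high as the highest WT arrays and the other 3 below every WT array (-0.05 ± 0.074). Timm17a, known as a stress-sensitive paralog of Timm17b, differed by 0.04 ± 0.053.

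In the import motor the 3 measured genes were all lower in KO. Pam16, which holds the J-protein of the motor in check, had the smallest unadjusted p of the 28 members, 0.053 by limma (adjusted p = 0.914). It gave 11.52, 11.52, 11.59, 11.68 and 11.75 in WT and 11.47, 11.48, 11.54, 11.41 and 11.52 in KO. All 5 KO values were below the WT mean, and KO 3 and KO 5 lay just above the 2 lowest WT arrays, with a difference of -0.13 ± 0.059 (95% confidence interval -0.26 to 0.0017). The means were 11.61 ± 0.10 in WT and 11.48 ± 0.05 in KO (SD, n = 5 each).

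Timm44, which ties the motor to the channel, gave 11.54, 11.39, 11.48, 11.48 and 11.47 in WT and 11.46, 11.31, 11.52, 11.36 and 11.24 in KO, a difference of -0.09 ± 0.062 with overlapping groups. Its other 2 probe sets gave -0.05 ± 0.066 and -0.030 ± 0.061. Grpel1, which exchanges the nucleotide of the matrix chaperone, gave 11.61, 11.56, 11.60, 11.73 and 11.76 in WT and 11.80, 11.59, 11.66, 11.52 and 11.52 in KO. It was highest in KO 1 and lowest in KO 4 and KO 5 (-0.03 ± 0.067).

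**Figure D2:**
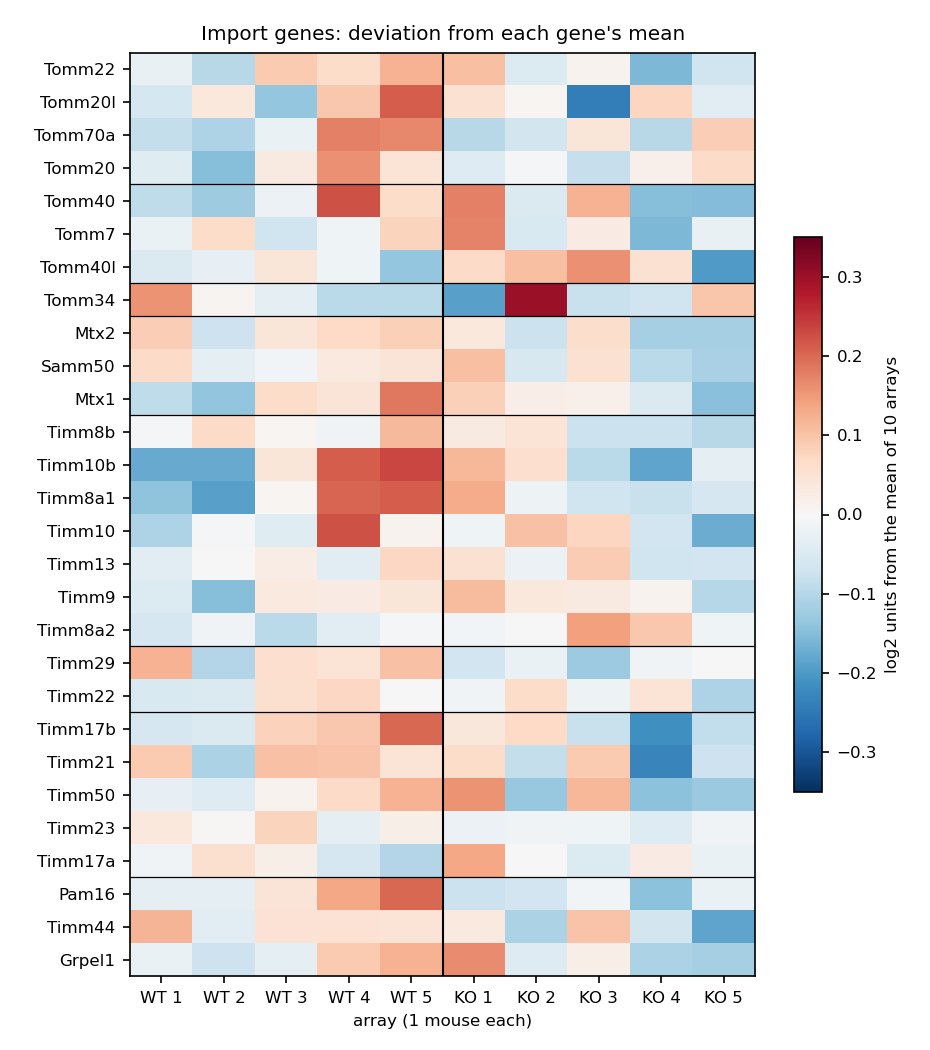
Deviation of each of the 28 import genes (rows, grouped by role between the lines) from its own mean over 10 arrays, in log2 units, for WT and KO arrays 1 to 5 (columns). Columns WT 4 and WT 5 are mostly above 0, and KO 4 and KO 5 mostly below. Against their labels, KO 1 is mostly above 0, WT 1 and WT 2 are mostly below, and KO 3 has 16 of the 28 above.

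Many members leaned the same way in the same arrays, and this followed the labels only in part. Averaged over the 28, the deviation from each gene's own mean was highest in WT 5 (0.08), WT 4 (0.07) and KO 1 (0.05). It was lowest in KO 4 (-0.07), KO 5 (-0.07) and WT 2 (-0.06), and lay between -0.020 and 0.015 in the other 4. WT 4 or WT 5 was the highest of the 10 arrays for 13 members and KO 4 or KO 5 the lowest for 19. By label, the highest array was a WT array for 18 members and a KO array for 10. The lowest was a WT array for 6 and a KO array for 22. WT arrays averaged 0.017 ± 0.06 and KO arrays -0.017 ± 0.05 (SD, n = 5 each), so the gap between labels was smaller than the spread within either.

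Other transcripts also differed between arrays, only in part along with the import genes. The mean of the 9 brown adipocyte markers was 11.74 in WT 4 and 11.86 in WT 5 and ran from 11.16 to 11.57 in the other 8 arrays. It was lowest in WT 2 (11.16) and KO 3 (11.18). In KO 4 and KO 5, where the import genes were lowest, it was 11.34 and 11.36. The mean of 5 white adipocyte markers was 7.10, 6.65 and 6.84 in WT 4, WT 5 and KO 5 and 7.47 to 7.84 elsewhere. In bulk tissue, fewer cells of a type and less RNA per cell cannot be told apart. RNA quality was read from the control signals of the 3′ end minus the 5′ end of 4 genes. For Pcx this was 3.25 ± 0.20 in WT and 2.88 ± 0.07 in KO (SD, n = 5 each), with every KO array below every WT array. KO minus WT was smaller for the other 3, at 0.05 for Actb, -0.018 for Gapdh and -0.08 for Tfrc. The part of any of these in the values of the import genes was not tested.

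**Figure D3:**
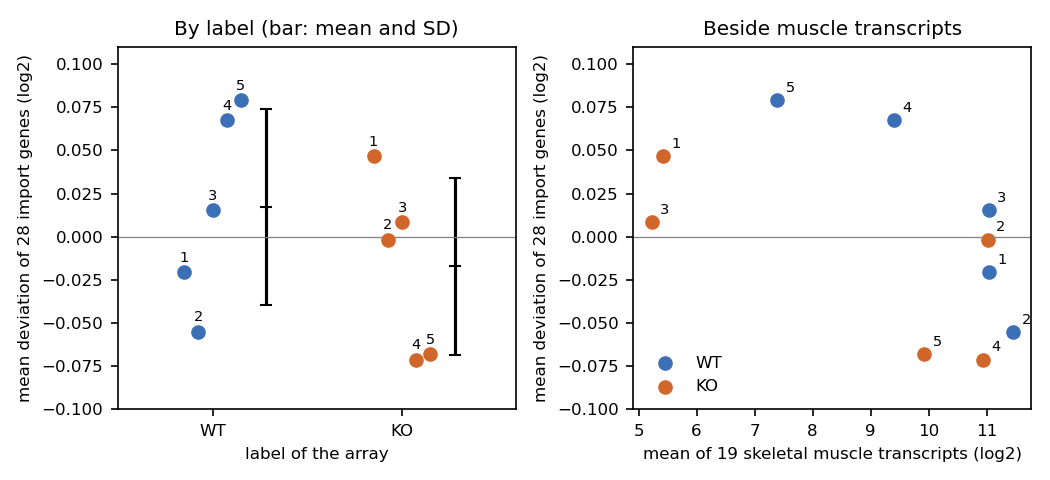
Mean deviation of the 28 import genes from their own means (log2 units), left by label with mean and SD beside the 5 arrays of each group, right against the mean log2 signal of 19 skeletal muscle transcripts; numbers are array numbers. The groups overlap on the left, and on the right 4 of the 5 arrays under a muscle level of 10 (WT 4, WT 5, KO 1 and KO 3) lie above 0 and KO 5 lies at -0.07, while of the 5 arrays over it WT 3 alone lies above 0.

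The samples differed widely in skeletal muscle transcripts, and most import genes had lower signals where these were higher. The mean of the 19 muscle transcripts ran from 7.39 to 11.46 in WT arrays and from 5.22 to 11.02 in KO arrays. In a fit with the muscle level and the label together, 21 of 28 members (75%) had a negative slope on the muscle level, against 58.1% of the 18174 genes outside the muscle list. The median slope was -0.021 log2 units per log2 unit of the muscle mean, and -0.0045 over those genes. By limma with Benjamini-Hochberg adjustment, 0 of 28 members were called, against 198 genes or 1.09%. At an unadjusted p under 0.05 with a negative slope there were 8 of 28 members, against 5.54% of genes. The members share their arrays and moved together, so these 8 are not 8 separate observations.

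Timm50 was nearest to the threshold, with a slope of -0.05 ± 0.010 (SE) and an adjusted p of 0.068 by limma. Over its alternatives it was called when arrays were centred on their median (adjusted p = 0.039), quantile normalized again (0.044) or cleared of dim genes (0.035), and its adjusted p over all alternatives ran from 0.035 to 0.767, the latter on another probe set. Tomm40 had a slope of -0.05 ± 0.015 (adjusted p = 0.242 by limma) and Grpel1 of -0.04 ± 0.012 (adjusted p = 0.290 by limma). Each of the 3 was higher in KO 1 and KO 3 than in the other KO arrays; in those 2 arrays muscle transcripts were lowest, at 5.42 and 5.22. The other members under an unadjusted 0.05 with a negative slope were Tomm22, Timm21, Tomm7, Mtx2 and Samm50. Tomm34 went the other way, at 0.04 ± 0.017 (adjusted p = 0.399 by limma), and was the single member under an unadjusted 0.05 with a positive slope. Timm23, Tomm20, Timm22, Timm17a, Timm29 and Tomm20l had slopes between 0.00016 and 0.0056.

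**Figure D4:**
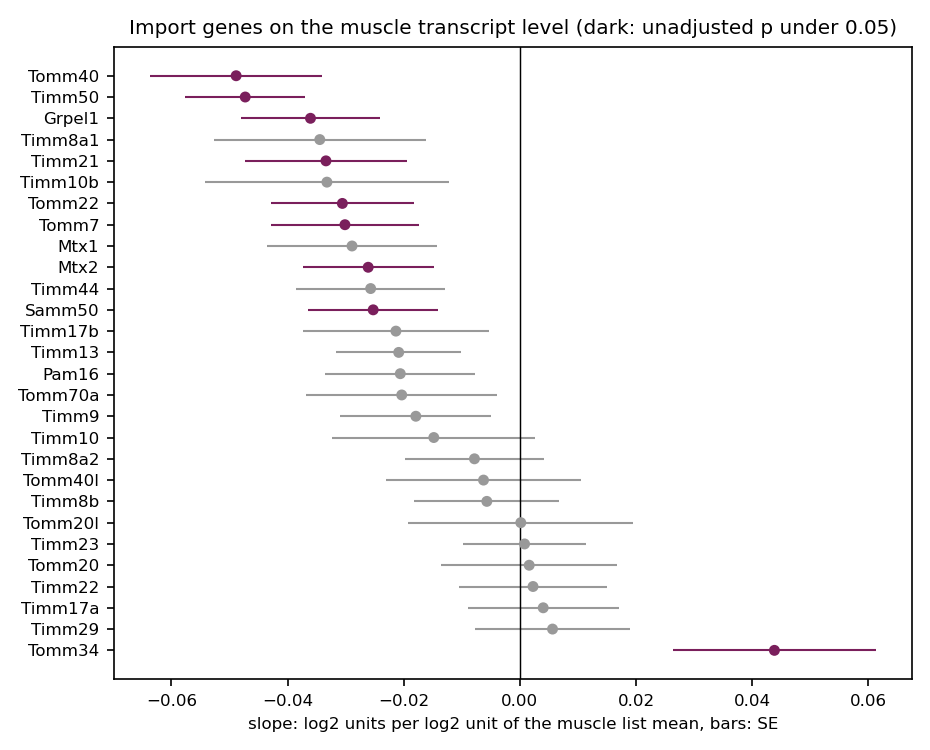
Slope of each import gene on the mean of 19 skeletal muscle transcripts (log2 units per log2 unit; bars are standard errors of the limma fit over 10 arrays with the label as a second term). 21 of 28 slopes lie below 0, and dark points mark the 9 with an unadjusted p under 0.05, of which Tomm34 alone is positive.

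With the muscle level in the fit, the difference between labels was negative for 23 of 28 members, with a median of -0.08. Over all genes 57.6% were lower in this fit, with a median of -0.018. The muscle level averaged 10.07 in WT and 8.51 in KO arrays. A member with a negative slope must therefore move down in this fit, so the lower median is not a separate result. Unadjusted p-values under 0.05 by limma were then found for 5 of 28 members, Mtx2, Pam16, Timm21, Timm44 and Timm50, against 1499 of 18193 genes. The members share their arrays, so these 5 are not 5 separate observations. None was called, with a smallest adjusted p of 0.580 by limma. Leaving out the 3 arrays lowest in muscle transcripts, WT 5, KO 1 and KO 3, gave a median of -0.04, with 22 members lower. Over all genes 57.3% were then lower, with a median of -0.017.

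Paralogs were set against each other within each array, which asks whether partners differed by unequal amounts between labels. Of 6 pairs, 0 passed an exact two-sided permutation test over every way of choosing 5 of 10 arrays (smallest possible p 0.0079), before or after adjustment over the 6 pairs. The log2 ratio of Timm17a to Timm17b was higher in KO by 0.15 ± 0.089 (SE), with 5 of 5 KO arrays above the WT mean (exact permutation p = 0.16, adjusted 0.48, n = 5 per group). That of Grpel1 to Grpel2, a second exchange factor of the matrix, was lower by 0.15 ± 0.077, with 4 of 5 KO arrays below the WT mean (exact permutation p = 0.12, adjusted 0.48, n = 5 per group). Tomm40 to Tomm40l differed by -0.10 ± 0.092, Mtx1 to Mtx2 by 0.06 ± 0.053, Tomm20 to Tomm20l by 0.04 ± 0.084 and Timm8a1 to Timm8b by 0.03 ± 0.087. The exact permutation p of these 4 ran from 0.33 to 0.75.

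Probe sets of the same gene differed in sign in 8 of the 15 members that had several. The 28 members had 57 probe sets, of which 42 were lower in KO. In 7 of the 15 every probe set had the sign of the one used, among them Tomm22 (-0.06 and -0.11), Timm17b, Timm29, Timm44, Timm50, Mtx1 and Timm8a1. In the other 8 at least 1 differed in sign, and of the 12 differing probe sets 3 had a mean below the array medians. Tomm20 had 6 probe sets, from -0.08 to 0.027. Tomm70a had 5, from -0.16 to 0.14, the latter at a mean signal of 3.74. By limma over 34945 probe sets, 0 of the 57 were called.

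**Figure D5:**
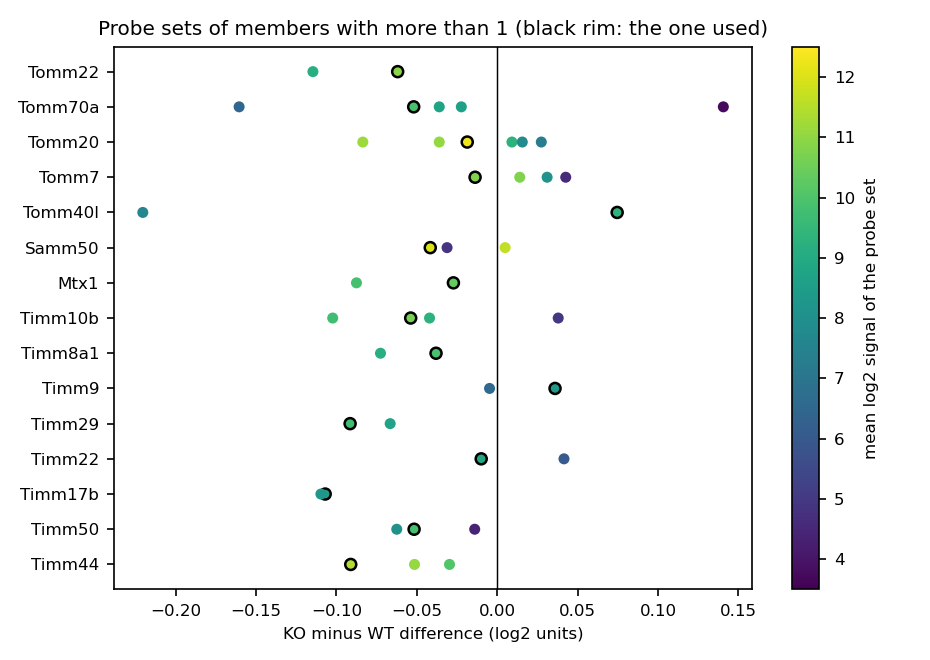
Difference between arrays labelled KO and WT (log2 units) for every probe set of the 15 members with more than 1; colour gives the mean log2 signal, and a black rim marks the probe set used. The widest gaps are in Tomm40l, at 0.07 and -0.22, and Tomm70a, from -0.16 to 0.14.

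Partners of these machines outside the naming rule were mixed in direction. Of 20 measured genes on that list, which holds processing peptidases, the Mia40 pathway and matrix chaperones among others, 11 were higher and 9 lower in KO, 0 were called, and the median was 0.012. An unadjusted p under 0.05 by limma was found for 2 of the 20, against 4.68% of all genes, too few to set the list apart. These were Xpnpep3, an aminopeptidase (0.29 ± 0.12), and Grpel2 (0.11 ± 0.049). Immp1l, a subunit of the inner membrane peptidase, differed by -0.13 ± 0.058 and Mipep, which trims leader peptides further, by 0.15 ± 0.073. Among 16 general mitochondrial genes, such as Cs, Vdac1 and Cox4i1, 9 were lower and 7 higher, with a median of -0.014 and 0 called. Their mean was between 12.65 and 12.73 in all 10 arrays.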

How the data were processed

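The authors deposited log2 signals per probe set, made with RMA per the submitters' processing notes; no label names its software or settings. RMA makes array distributions alike and gives no detection call. Of 45101 probe sets, 34945 had 1 annotated gene, 932 several, 9160 none and 64 were controls; those with 1 gene were used, leaving 18193 genes, with the platform annotation's symbols. Groups and array numbers came from the titles. Each array was taken as 1 mouse; if any share an animal, p-values cover only the spread between samples.

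Differences are KO minus WT from lmFit and eBayes (limma 3.58.1, R 4.3.3), two-sided, with Benjamini-Hochberg adjustment across every gene tested, and called at adjusted p under 0.05. The slope fit added the mean of 19 muscle transcripts. Figures used matplotlib 3.10.9. The fits were tested on simulated data. The members and lists were chosen with earlier results of these data known, so lists are described by counts and medians only. All arrays are given for the 2 members of each role with the smallest p, the 4 channel subunits Tomm40, Timm23, Timm22 and Samm50, and the 4 members with the smallest slope p. The number of arrays limits the precision. Alternatives were another normalization or centring, a filter at mean log2 of 6, other variance models, weights, other probe sets, a replicate block, a muscle covariate and left-out arrays. Protein sequences were not used here.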

Additional observations from a re-analysis of the deposited data

Results flagged for a closer look

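In 3 of 70 groups of 5 arrays checked (each member, each paralog ratio and the mean of the members, by label), a single array stood apart from the other 4 by more than Dixon's 95% limit; chance gives about 1 in 20. Mtx2 was 10.95 in WT 2, against 11.06 to 11.11 in the other WT arrays. Timm21 was 9.34 in WT 2, against 9.50 to 9.56. Timm23 was 11.95 in KO 4, against 11.97 to 11.98 in the other KO arrays. Without WT 2, the smallest adjusted p of a member by limma was 0.608.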

How the results depend on the processing

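Under 21 alternatives the counts of called members and of called genes between labels were 0, and the median of the members ran from -0.08 to 0.0025. Without single arrays that median ran from -0.071 to -0.012; with array weights it was -0.024. The count of genes at an unadjusted p under 0.05 (851) was 1418 without WT 2, 1499 with the muscle covariate and 524 among genes with a mean of at least 6. Same-numbered arrays correlated at -0.40 to 0.24 in their deviations over all genes, and 0 correlated best with their own number. This gave no sign that the array numbers pair the samples. It cannot exclude a pairing, since the deviations also hold the wide differences in muscle transcripts. With the replicate number as a block, 736 genes were under 0.05 and 0 were called. Each number holds a WT and a KO array, so this block cannot move the differences or their median of -0.04.

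Some alternatives could not turn a sign. The filter at mean log2 of 6, other variance models and the replicate block leave each difference they cover as it was. Centring the arrays lowered every difference by the same small amount, so it could not turn a negative one. The muscle covariate could not turn a negative difference of a member with a negative slope, such as Pam16, Mtx2 or Timm44. Nor can the choice of probe sets turn a member with a single one, such as Mtx2, Pam16, Timm21, Timm23, Timm8a2 or Timm8b. The sign was the same in every alternative run for 12 members: Mtx2, Pam16, Samm50, Timm17b, Timm21, Timm23, Timm29, Timm44, Timm50, Timm8a2, Timm8b and Tomm22. Samm50 is among these although another of its probe sets was at 0.0049. Of the other 16, signs turned without WT 4 and WT 5 in Grpel1 (0.024), Mtx1 (0.041), Timm10 (0.036), Timm10b (0.077), Timm13 (0.0022), Timm17a (-0.0020), Timm22 (0.011), Timm8a1 (0.088), Tomm20 (0.044), Tomm20l (0.024), Tomm34 (-0.032), Tomm40 (0.068), Tomm7 (0.0029) and Tomm70a (0.046). They turned after another quantile normalization in Timm13 (0.0042), Timm22 (0.013), Tomm20 (0.0092), Tomm40 (0.0061) and Tomm7 (0.016), and with array weights in Tomm7 (0.0029). With the mean of all probe sets Timm22 was at 0.016, Tomm40l at -0.073 and Tomm7 at 0.018. On plain _at probe sets alone, which leaves out 6 members, Timm10b was at 0.038 and Timm9 at -0.0048. Without WT 5, KO 1 and KO 3, Tomm20 was at 0.026, Tomm20l at 0.031 and Tomm40l at -0.00020. Leaving out single arrays gave -0.065 to 0.016 for Mtx1, -0.063 to 0.020 for Timm10, -0.030 to 0.011 for Timm13, -0.027 to 0.016 for Timm22, -0.090 to 0.010 for Timm8a1, -0.058 to 0.019 for Tomm20, -0.049 to 0.074 for Tomm34, -0.068 to 0.032 for Tomm40 and -0.059 to 0.024 for Tomm7.

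On the muscle level, 1 member (Timm50) was called after another quantile normalization, with centred arrays and without dim genes, and 0 under the other alternatives; 137 to 215 genes were called without single arrays. The ratio of Tomm40 to Tomm40l turned to 0.052 when probe sets were averaged and to 0.018 without WT 4 and WT 5. That of Tomm20 to Tomm20l turned to -0.026 on plain _at probe sets and to -0.0049 without WT 5, KO 1 and KO 3, and ran from -0.0023 to 0.086 without single arrays, where that of Timm8a1 to Timm8b ran from -0.032 to 0.086. The NRF1 letters were in 3 members, not 6, before the start alone. The cause of these turns was not tested.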
